A study of Rattus norvegicus with 105 samples.

Results

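Nitroethane (NE), a short nitroalkane used as a solvent and chemical intermediate, was examined here at 0.3 and 1 mM in primary rat hepatocytes, to find which genes move first as its concentration increases. The libraries were chosen by their labels: all 3 of NE at 0.3 mM, all 3 of NE at 1 mM and the 3 of untreated medium from the same library set (set 1), which makes 9 of the 105 libraries of the series. The cells were hepatocytes of female Sprague-Dawley rats from a single commercial lot, plated in 96-well format, and all groups were collected after 24 hours of exposure. The labels speak of 3 biological replicates per group, but since all cells came from 1 lot, each p-value below reflects how wells varied and says nothing of variation between animals. Expression was read with TempO-Seq, in which a pair of short oligonucleotides is ligated on each targeted RNA and counted by sequencing, so that each value belongs to a detector probe. The labels give the NE concentrations in mM in the protocol and with a µM unit in the titles, and mM is used here. They do not say whether the NE wells held DMSO, so values of the DMSO libraries of set 1 are set beside the results they touch.

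Cells that meet misfolded protein in the endoplasmic reticulum (ER) or a shortage of amino acids answer through linked pathways. The kinase PERK and its relatives phosphorylate a translation initiation factor, which favours translation of the transcription factor ATF4, and ATF4 in turn induces genes of amino acid supply together with Ddit3 (CHOP) and Trib3. The sensors ATF6 and IRE1, the latter through Xbp1, induce the chaperones of the ER lumen, such as Hspa5 (BiP) and Hsp90b1 (GRP94). Hepatocytes, which make most plasma proteins, depend on this machinery.

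Total counts of the 9 libraries ran from 7982203 to 9358854 (median 8622511), and 3 counts, the floor used for detection, correspond to 0.321 to 0.376 CPM, the unit of all levels below, in which each library's counts are divided by its total. Replicate 3 of NE 0.3 mM and replicate 3 of NE 1 mM stood apart from their group mates: their counts differed from them by a chi-square of 21.2 to 29.4 per degree of freedom, against 3.23 to 5.82 for the other pairs within groups. Of the other NE concentrations in the same fit, replicate 2 of 10 mM and replicate 3 of 0.01 mM stood apart too, and results are given with and without these libraries. By the well names in the labels, each NE concentration lay in a plate row of its own, so row and concentration cannot be told apart. Medium lay in plate columns 10 to 12 and NE in columns 7 to 9, so in comparisons with medium column and exposure cannot be told apart either. Defining markers of hepatocytes were abundant, with all 7 probes above 1 CPM and summed levels of 8340 to 10300 CPM in medium, 6720 to 7630 at 0.3 mM and 7230 to 9120 at 1 mM. Those of stellate cells and fibroblasts summed to 316 to 430 CPM over the medium, 0.3 mM and 1 mM libraries, with overlapping groups. Nearly all of it was Reln (313 to 425 CPM), 2 of the 10 probes reached 1 CPM, and Col1a1 was at 0 in all 9. Summed markers of endothelium, lymphocytes and erythroid cells reached at most 1.07 CPM. Those of Kupffer cells summed to 1.97 to 3.07 CPM in medium, 4.21 to 6.17 at 0.3 mM and 3.66 to 5.71 at 1 mM, low but above medium in both exposed groups. Of the cholangiocyte markers 4 of 7 probes were above 1 CPM, with sums of 627 to 737 CPM in medium, 569 to 709 at 0.3 mM and 456 to 569 at 1 mM.

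At 0.3 mM, 1 gene rose and 3 fell. Ddit3 (CHOP), the stress-induced transcription factor downstream of ATF4, rose, while the tetraspanin Tspan8 and the annexin Anxa8 were among those that fell. There were 4 probes of 12339 tested at an adjusted p under 0.05 (0.0324% of all, with 0.0081% higher and 0.0243% lower), and the probes with an unadjusted p under 0.05 numbered 1235. The 2 concentrations share their medium libraries, so their values against medium are given side by side and are not independent of each other.

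Ddit3 stood at 264, 238 and 303 CPM in medium, at 476, 462 and 460 CPM at 0.3 mM and at 461, 473 and 460 CPM at 1 mM. All 6 exposed libraries were higher than every medium library, and the 2 exposed groups overlapped. The log2 change from medium was 0.74 ± 0.127 (SE, n = 3 against 3, adjusted p = 0.0234) at 0.3 mM and 0.76 ± 0.127 (adjusted p = 0.00683) at 1 mM. The difference of 1 mM from 0.3 mM was 0.0135 on the log2 scale, with a 95% interval of -0.235 to 0.262.

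Anxa8, an annexin of epithelial cells, was at 25.2, 24.6 and 18.3 CPM in medium, at 10.8, 9.19 and 10.8 CPM at 0.3 mM and at 11, 8.61 and 10.7 CPM at 1 mM. Every exposed library lay below every medium library. Its log2 change was -1.20 ± 0.213 (adjusted p = 0.0252) at 0.3 mM and -1.21 ± 0.213 (adjusted p = 0.0081) at 1 mM. Tspan8, a tetraspanin of the cell surface, was at 170, 192 and 173 CPM in medium, at 94.3, 103 and 92.6 CPM at 0.3 mM and at 124, 114 and 107 CPM at 1 mM. The exposed groups lay below medium, with a log2 change of -0.94 ± 0.155 (adjusted p = 0.0234) at 0.3 mM, and 1 mM missed the threshold at -0.66 ± 0.154 (adjusted p = 0.0723).

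These calls rested on all 3 wells of a group: without any 1 of the 6 libraries compared no probe was called at 0.3 mM, except that 3 (Ddit3, Anxa8 and Tspan8) were called without medium replicate 3. The log2 change of Ddit3 stayed between 0.66 and 0.83 in those fits. Without the 2 libraries of 0.01 and 10 mM that stood apart, which only enter the shared estimate of spread, 18 probes were called at 0.3 mM (0.145% of 12374), 4 higher (0.0323%) and 14 lower (0.113%), and all 4 of the main fit were among them. With the 3rd replicates of 0.3 and 1 mM out as well, 11 were called (0.0897% of 12260), again including those 4. The probes added included the acute phase genes Lcn2 (log2 change -0.58, adjusted p = 0.012), A2m (-0.70, 0.0297) and Orm1 (-0.66, 0.0489), all lower. The fall of Lcn2 did not begin at 0.3 mM (2180, 2200 and 2020 CPM). At 0.1 mM Lcn2 was at 2040, 2070 and 2260 CPM, below medium (3170, 3220 and 2790 CPM). A2m at 0.1 mM (323, 308 and 373 CPM) overlapped both 0.3 mM (315, 295 and 325 CPM) and medium (563, 553 and 345 CPM).

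**Figure D1:**
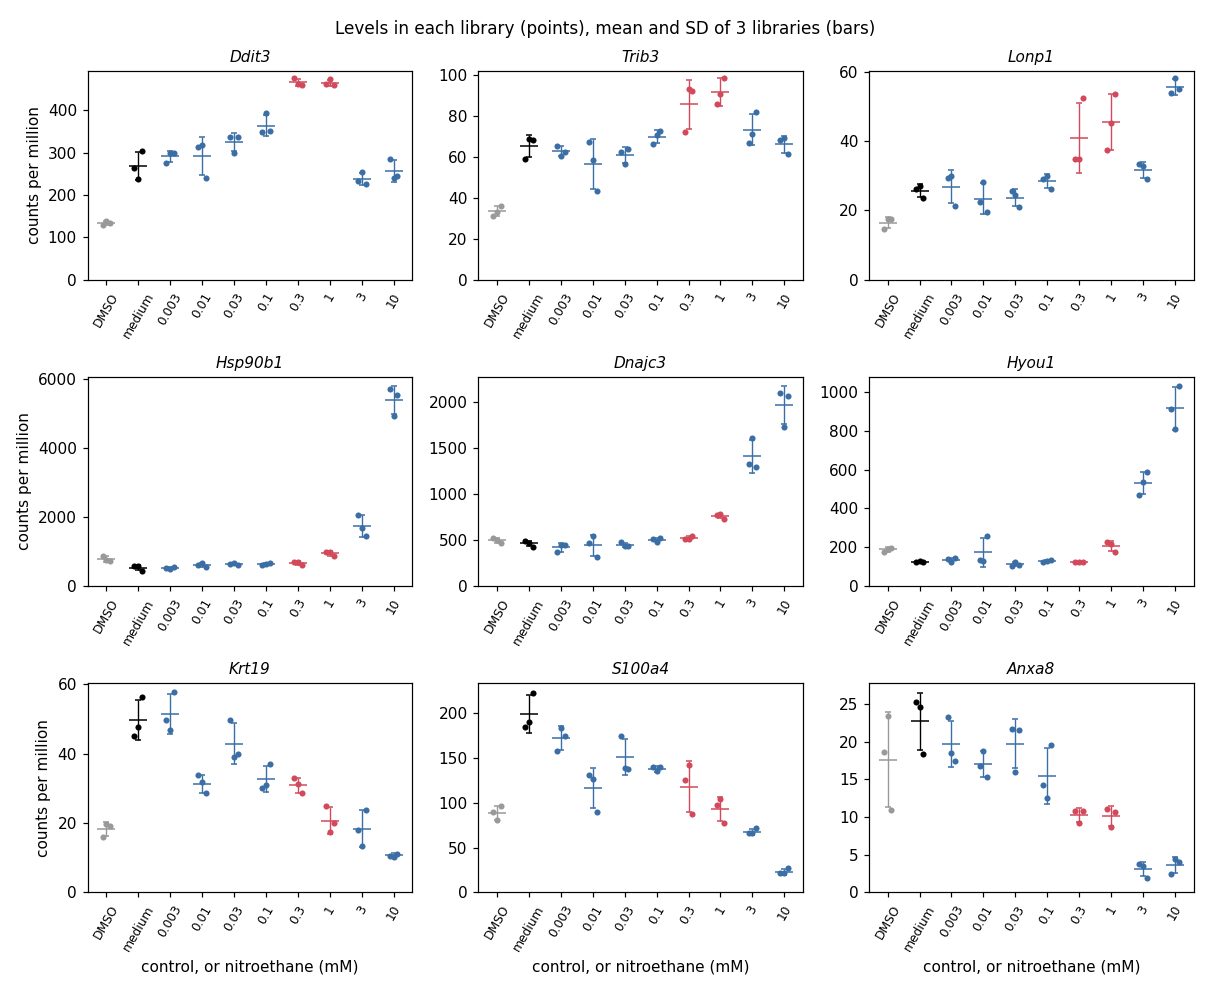
Levels in CPM (linear axes from 0) of Ddit3, Trib3, Lonp1, Hsp90b1, Dnajc3, Hyou1, Krt19, S100a4 and Anxa8 in DMSO, medium and the 8 NE concentrations, with points for libraries and bars for mean ± SD (n = 3). Ddit3 is highest at 0.3 and 1 mM and lies between 226 and 254 CPM at 3 mM, whereas Hsp90b1 is higher at 3 and 10 mM than at 1 mM.

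At 1 mM, chaperones of the ER rose beside Ddit3, and Krt19, S100a4 and other genes fell. There were 27 probes called (0.219% of 12339), 14 higher (0.113%) and 13 lower (0.105%). The groups of all 27 did not overlap, which was so for 21.4% of all probes tested. Genes that rose included the chaperones Hspa5, Hsp90b1, Calr and Dnajc3, the secretory cell transcription factor Bhlha15, the mitochondrial protease Lonp1 and the lipolysis inhibitor G0s2. Those that fell included the filament proteins Krt19 and Vim, the surface proteins Mme and Cldn2, S100a4 and Cxcl6.

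Among the ER genes, Hsp90b1 (GRP94), a chaperone of secreted and membrane proteins, was at 567, 576 and 446 CPM in medium, at 707, 710 and 605 CPM at 0.3 mM and at 975, 1000 and 870 CPM at 1 mM. The 3 groups did not overlap, in the order of concentration. Its log2 change was 0.81 ± 0.151 (adjusted p = 0.0142) at 1 mM and 0.30 ± 0.15 (adjusted p = 0.518) at 0.3 mM. Calr (calreticulin), the lectin chaperone that folds glycoproteins and binds calcium, was at 418, 425 and 390 CPM in medium, at 542, 570 and 528 CPM at 0.3 mM and at 748, 784 and 697 CPM at 1 mM. It too kept the order of concentration without overlap, with a log2 change of 0.82 ± 0.157 (adjusted p = 0.0172) at 1 mM and 0.36 ± 0.156 (adjusted p = 0.449) at 0.3 mM. Hspa5 (BiP), the chaperone that also holds the ER stress sensors inactive, was at 11.9, 19 and 16.4 CPM in medium, at 27.5, 33.7 and 36 CPM at 0.3 mM and at 32.9, 44.9 and 41.6 CPM at 1 mM. Both exposed groups lay above medium and overlapped each other, and the log2 change was 1.30 ± 0.274 (adjusted p = 0.0367) at 1 mM and 0.98 ± 0.274 (adjusted p = 0.25) at 0.3 mM. Lower concentrations limit the order: at 0.1 mM Hsp90b1 (598, 624 and 668 CPM) and Calr (498, 486 and 549 CPM) were above medium and overlapped 0.3 mM. Hspa5 at 0.01 mM (25.7, 21 and 35 CPM) was above medium too and overlapped both 0.3 and 1 mM.

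Dnajc3 (p58IPK), a co-chaperone of BiP, differed in that its 0.3 mM libraries were near medium. One of its probes was at 488, 469 and 429 CPM in medium, at 509, 513 and 542 CPM at 0.3 mM and at 768, 782 and 732 CPM at 1 mM. Its log2 change was 0.68 ± 0.148 (adjusted p = 0.0442) at 1 mM and 0.12 ± 0.147 (adjusted p = 0.823) at 0.3 mM, and a second, weaker Dnajc3 probe was not called at 1 mM (0.50, adjusted p = 0.497). Hyou1 (GRP170), a chaperone and exchange factor of BiP, was at 126, 128 and 122 CPM in medium, at 122, 126 and 122 CPM at 0.3 mM and at 229, 214 and 176 CPM at 1 mM. Its 1 mM libraries were all higher than the other 6, but its log2 change of 0.69 ± 0.225 missed the threshold (adjusted p = 0.263). Without the 2 libraries of 0.01 and 10 mM it passed (0.69 ± 0.113, adjusted p = 0.00152). The same held for Creld2, an ER-resident protein (adjusted p = 0.158, and 0.00109 without them), and for the disulfide isomerase Pdia6 (adjusted p = 0.537, and 0.0464 without them).

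The promoters of these chaperones are shown because the ER stress response element, CCAAT followed by 9 bases of any kind and CCACG, is the textbook site through which ATF6 and the factor NF-Y induce them. In the 250 bases before the start of each RefSeq gene (assembly GRCr8), read on both strands, it was found in 22 of 33469 windows (0.0657%). All 4 ER chaperones called at 1 mM hold it. Of the 14 genes called higher at 1 mM, 10 had a window and 4 held the element, and of the 12 called lower that are reported here by name, 9 had a window and none held it. Capitals mark the fixed letters of the element (in Hsp90b1 and Calr also, or only, on the other strand, as CGTGG and ATTGG). In Trib3 they mark a match on the other strand to TGATGNAA, the composite site bound by C/EBP and ATF factors, which was found in 1139 of the windows (3.4%). The window of Ddit3 held neither, and matches are a description of these letters, not evidence of binding. The windows are Hspa5 at chr3:38452766-38453015 (plus strand), Hsp90b1 at chr7:23012294-23012543 (minus), Calr at chr19:40213117-40213366 (plus), Dnajc3 at chr15:102432417-102432666 (plus), Ddit3 at chr7:65001445-65001694 (plus) and Trib3 at chr3:161275534-161275783 (minus), each written 5′ to 3′ on the strand of the gene.
Hspa5: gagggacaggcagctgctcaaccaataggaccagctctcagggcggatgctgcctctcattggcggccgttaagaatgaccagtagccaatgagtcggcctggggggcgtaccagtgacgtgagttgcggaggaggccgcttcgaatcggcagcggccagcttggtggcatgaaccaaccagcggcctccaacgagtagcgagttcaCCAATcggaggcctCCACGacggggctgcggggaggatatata
Hsp90b1: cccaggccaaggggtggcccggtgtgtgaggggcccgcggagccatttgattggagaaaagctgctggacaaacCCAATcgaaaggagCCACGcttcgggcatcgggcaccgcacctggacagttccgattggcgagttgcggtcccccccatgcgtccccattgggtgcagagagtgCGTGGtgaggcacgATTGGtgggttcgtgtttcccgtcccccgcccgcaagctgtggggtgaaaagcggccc
Calr: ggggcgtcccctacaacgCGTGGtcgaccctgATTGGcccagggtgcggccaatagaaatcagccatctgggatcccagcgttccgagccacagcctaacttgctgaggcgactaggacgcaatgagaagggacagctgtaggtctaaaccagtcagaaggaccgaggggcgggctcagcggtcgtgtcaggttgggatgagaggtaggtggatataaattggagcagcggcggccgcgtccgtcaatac
Dnajc3: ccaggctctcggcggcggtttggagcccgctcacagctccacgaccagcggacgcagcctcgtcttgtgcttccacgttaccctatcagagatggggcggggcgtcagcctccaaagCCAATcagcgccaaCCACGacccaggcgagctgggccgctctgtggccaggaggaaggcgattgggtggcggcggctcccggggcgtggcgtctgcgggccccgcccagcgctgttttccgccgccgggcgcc
Ddit3: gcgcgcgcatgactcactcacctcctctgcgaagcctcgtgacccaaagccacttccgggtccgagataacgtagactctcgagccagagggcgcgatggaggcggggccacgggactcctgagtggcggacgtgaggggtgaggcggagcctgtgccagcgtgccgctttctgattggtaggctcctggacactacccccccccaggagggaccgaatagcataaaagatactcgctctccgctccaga
Trib3: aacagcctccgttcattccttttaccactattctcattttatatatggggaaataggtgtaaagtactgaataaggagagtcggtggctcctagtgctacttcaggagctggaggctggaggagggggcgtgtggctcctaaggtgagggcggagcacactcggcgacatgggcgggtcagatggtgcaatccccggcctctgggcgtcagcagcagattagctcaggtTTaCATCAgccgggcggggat

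The list of ER chaperones and unfolded protein response genes had 14 probes tested. At 0.3 mM none was called (4 of all 12339 probes were), 10 of 14 had a log2 change above 0, and the median was 0.047, beside 0.022 over all probes. At 1 mM, 4 were called, all higher, where 14 of all 12339 probes were called higher. All 14 of 14 list probes were above 0 and the median was 0.49, beside 0.023 over all probes. With the 2 libraries of 0.01 and 10 mM out, 7 were called at 1 mM, all higher, where 56 of 12374 probes were called higher. None of the list was then called at 0.3 mM, where 18 of 12374 probes were. At 3 mM 13 of the 14 were called higher, where 6.15% of all probes were, and at 10 mM all 14, where 16.6% were. The element above was present in 7 of the 12 list genes with a window (Calr, Canx, Creld2, Dnajc3, Hsp90b1, Hspa5 and Xbp1). In DMSO against medium 3 of the 14 were called higher (2.13% of all probes), with a median of 0.46, and NE 1 mM against DMSO gave 2 called higher (1.15% of all probes) and a median of 0.11, beside 0.02 over all probes. At 0.3 mM against DMSO, 2 of 14 were above 0, with a median of -0.35 beside 0.023. Of the 14, 1 was called higher (2.11% of all probes) and 2 lower (3.18%). Hsp90b1 in DMSO was at 879, 755 and 722 CPM and Dnajc3 at 518, 499 and 469 CPM. Against DMSO at 1 mM Dnajc3 differed by 0.54 (adjusted p = 0.0399) and Hsp90b1 by 0.19 (adjusted p = 0.61).

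**Figure D2:**
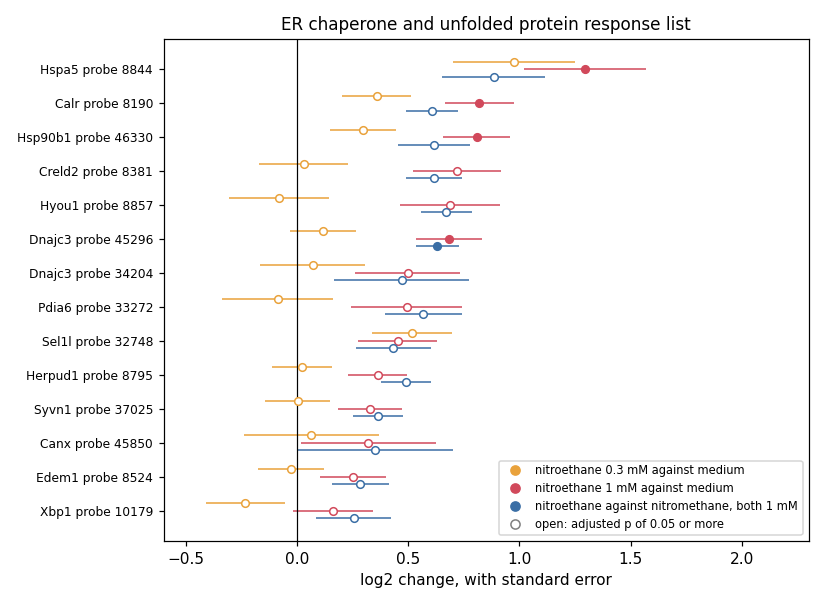
Log2 change ± SE of the 14 probes of the ER chaperone list for NE 0.3 mM and NE 1 mM against medium and for NE against nitromethane, both at 1 mM, with filled points for adjusted p under 0.05. At 1 mM all 14 lie above 0, and the 4 called are Hspa5, Hsp90b1, Calr and one Dnajc3 probe.

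Bhlha15 (MIST1), a transcription factor of secretory cells, was at 2.2, 3.01 and 1.02 CPM in medium, at 2.92, 3.95 and 5.53 CPM at 0.3 mM and at 8.04, 7.82 and 10.6 CPM at 1 mM. The 1 mM libraries lay above the other 6, and the log2 change of 2.04 ± 0.305 (adjusted p = 0.00267) was called in each of the 6 fits that left out 1 library. It was higher still at 3 mM (22.8, 28.9 and 23.9 CPM) and 10 mM (58.9, 59.9 and 56.8 CPM). Hid1, a Golgi protein of secretory vesicle formation, was at 106, 105 and 95.2 CPM in medium, at 111, 125 and 115 CPM at 0.3 mM and at 177, 192 and 179 CPM at 1 mM (log2 change 0.80 ± 0.141, adjusted p = 0.0081). Nucb2, the calcium-binding precursor of nesfatin-1, was at 447, 447 and 404 CPM in medium, at 580, 577 and 579 CPM at 0.3 mM and at 766, 850 and 799 CPM at 1 mM (0.86 ± 0.161, adjusted p = 0.0142). In DMSO, Bhlha15 was at 7.22, 5.53 and 5.35 CPM and Hid1 at 166, 174 and 165 CPM, both above medium, and neither was called at 1 mM against DMSO (adjusted p = 0.41 and 0.95).

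Of the genes of metabolism and signalling called higher at 1 mM, Lonp1, the ATP-dependent protease of the mitochondrial matrix, was at 26.2, 27.2 and 23.7 CPM in medium, at 34.9, 35 and 52.6 CPM at 0.3 mM and at 37.5, 45.3 and 53.8 CPM at 1 mM. Both exposed groups lay above medium, with replicate 3, which stood apart, the highest in each, and the log2 change at 1 mM was 0.78 ± 0.158 (adjusted p = 0.0257). G0s2, an inhibitor of adipose triglyceride lipase, was at 22.4, 25.9 and 24.8 CPM in medium, at 35.5, 32.4 and 34.8 CPM at 0.3 mM and at 42.8, 38.2 and 49.5 CPM at 1 mM (0.79 ± 0.153, adjusted p = 0.0187). Unc5b, a netrin receptor, was at 24.8, 31.1 and 19.5 CPM in medium, at 36.1, 32.5 and 47.5 CPM at 0.3 mM and at 38.3, 51.8 and 58 CPM at 1 mM (0.93 ± 0.174, adjusted p = 0.0142). In DMSO these 3 genes were below or near medium (Lonp1 14.7, 17.4 and 17.5 CPM, G0s2 10.5, 9.68 and 10.9 CPM, Unc5b 22.7, 22.9 and 20.9 CPM), so all 3 also exceeded DMSO at 1 mM, by 1.37, 1.98 and 1.06 on the log2 scale (adjusted p = 1.09e-05, 1.31e-08 and 0.000174).

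The other calls among the higher genes were at low levels. Cyp4a1, a fatty acid omega-hydroxylase induced through PPARα, was at 9.16, 11.9 and 7.17 CPM in medium, at 12.4, 13.5 and 18.9 CPM at 0.3 mM and at 22.1, 18.4 and 28 CPM at 1 mM (1.23 ± 0.248, adjusted p = 0.0251). It was not ordered by concentration, since NE at 0.01 mM had 17.9, 22.5 and 35.3 CPM and was also called higher (1.57, adjusted p = 0.0145), and in DMSO it was at 51.6, 49.4 and 52.5 CPM, above all of these. Cyp2b2, a cytochrome P450 induced through CAR whose near-identical relative Cyp2b1 may share its probe signal, was at 1.39, 2.38 and 2.28 CPM in medium and at 10.8, 4.65 and 7.77 CPM at 1 mM (1.89, adjusted p = 0.0459). At 0.3 mM Cyp2b2 was at 3.68, 3.53 and 5.05 CPM, above medium. It was not ordered by concentration either, since 0.01 mM (5.35, 5.63 and 5.2 CPM) overlapped 1 mM. Tmem53 was at 2.2, 3.88 and 2.62 CPM in medium and at 7.33, 9.86 and 11 CPM at 1 mM (1.65, adjusted p = 0.0257). Its 0.3 mM libraries, at 8.11, 5.98 and 13.8 CPM, were also above medium and overlapped 1 mM.

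Among the genes that fell at 1 mM, Krt19, a keratin of bile duct epithelium that hepatocytes gain in culture, was at 45, 47.7 and 56.3 CPM in medium, at 33, 31.2 and 28.6 CPM at 0.3 mM and at 24.9, 17.3 and 19.9 CPM at 1 mM. The 3 groups did not overlap, with a log2 change of -1.30 ± 0.186 (adjusted p = 0.00267) at 1 mM, called in all 6 fits that left out 1 library, and -0.73 ± 0.182 (adjusted p = 0.208) at 0.3 mM. NE at 0.01 mM (33.8, 31.8 and 28.7 CPM) and at 0.1 mM (30.1, 30.9 and 37 CPM) overlapped 0.3 mM. Krt19 is also a marker of cholangiocytes: of the 4 cholangiocyte probes tested, 0 had a log2 change above 0 at 1 mM, with a median of -0.68, and Krt19 was the one called. Sox9 was at 381, 406 and 498 CPM in medium and 306, 240 and 408 CPM at 1 mM (adjusted p = 0.428). Epcam was at 200, 197 and 166 CPM in medium and 180, 194 and 130 CPM at 1 mM (adjusted p = 0.778). Spp1 was at 0.232, 14.2 and 15.9 CPM in medium and 2.48, 4.08 and 10.7 CPM at 1 mM (adjusted p = 0.718). Medium and 1 mM overlapped for each of these 3. In bulk libraries fewer cells of a type and less RNA per cell cannot be told apart, and the part of cell composition in this change was not tested.

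S100a4, a calcium-binding protein of motile cells, was at 184, 190 and 223 CPM in medium, at 125, 142 and 87 CPM at 0.3 mM and at 97, 104 and 77.6 CPM at 1 mM (-1.13 ± 0.178 at 1 mM, adjusted p = 0.00425). Both exposed groups lay below medium and overlapped each other. S100a4 at 0.01 mM (131, 126 and 90.1 CPM) and at 0.1 mM (140, 135 and 140 CPM) was also below medium and overlapped 0.3 mM. Mme (neprilysin), a membrane peptidase, was at 42.1, 46 and 57.2 CPM in medium, at 29, 28.4 and 32.3 CPM at 0.3 mM and at 24.8, 20.4 and 23.7 CPM at 1 mM (-1.11 ± 0.191, adjusted p = 0.00683). Cxcl6, a neutrophil-attracting chemokine, was at 47.5, 44.8 and 50.8 CPM in medium, at 34.4, 28.4 and 27.4 CPM at 0.3 mM and at 22.1, 16.5 and 23.3 CPM at 1 mM (-1.25 ± 0.214, adjusted p = 0.00683). For the last 2 medium, 0.3 mM and 1 mM did not overlap, but the lower concentrations broke the order: at 0.01 mM Cxcl6 was at 31.3, 23.5 and 17.4 CPM and Mme at 31.6, 32.4 and 19.8 CPM. Vim (vimentin), an intermediate filament protein, was at 283, 283 and 380 CPM in medium, at 289, 242 and 237 CPM at 0.3 mM and at 190, 162 and 190 CPM at 1 mM (-0.84 ± 0.177, adjusted p = 0.0367), so that 0.3 mM overlapped medium and 1 mM did not. Cldn2, a claudin of the tight junction, had both exposed groups below medium, at 149, 153 and 193 CPM in medium, 145, 134 and 125 CPM at 0.3 mM and 109, 79.8 and 103 CPM at 1 mM (-0.80 ± 0.17, adjusted p = 0.0367). Further falls at 1 mM were those of Pkp1, a desmosomal plakophilin, R3hdml, Mcam, a cell adhesion molecule, Retreg3, an ER membrane protein, and PCOLCE2, with log2 changes from -1.40 to -0.88 and adjusted p from 0.0187 to 0.0461.

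Several of these genes were as low in DMSO as at 1 mM. Krt19 was at 15.9, 19.8 and 19 CPM in DMSO, S100a4 at 89.9, 80.4 and 95.9 CPM and Mme at 21.8, 23 and 26.9 CPM. Against DMSO at 1 mM their log2 differences were 0.10, -0.01 and -0.14, none of them called, and DMSO itself differed from medium in 440 of 12364 probes (3.56%). Against DMSO, NE differed in 652 of 12326 probes (5.29%) at 0.3 mM and in 346 (2.81%) at 1 mM. Whether a carrier was part of the NE wells was not tested. Ddit3 was lower in DMSO than in medium, at 129, 139 and 134 CPM, so it exceeded DMSO by more than medium, by 1.70 ± 0.122 (adjusted p = 1.99e-09) at 0.3 mM and by 1.71 ± 0.122 (adjusted p = 1.62e-09) at 1 mM. Anxa8 stayed lower than DMSO too, by -0.89 at each concentration (adjusted p = 0.0294 and 0.0438).

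Left out singly, each of the 6 libraries lowered the number of calls at 1 mM from 27 to between 3 (without NE 1 mM replicate 2) and 16 (without medium replicate 2, and likewise without NE 1 mM replicate 3). The count was 12 without NE 1 mM replicate 1, 7 without medium replicate 1 and 8 without medium replicate 3. Hspa5 and Dnajc3 were called in none of these 6 fits. With the 2 libraries of 0.01 and 10 mM out of the shared spread, 149 probes were called (1.2% of 12374), 56 higher (0.453%) and 93 lower (0.752%), including all 27. When the 3rd replicates of 0.3 and 1 mM were left out as well, 222 were called (1.81% of 12260), including 25 of the 27.

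**Figure D3:**
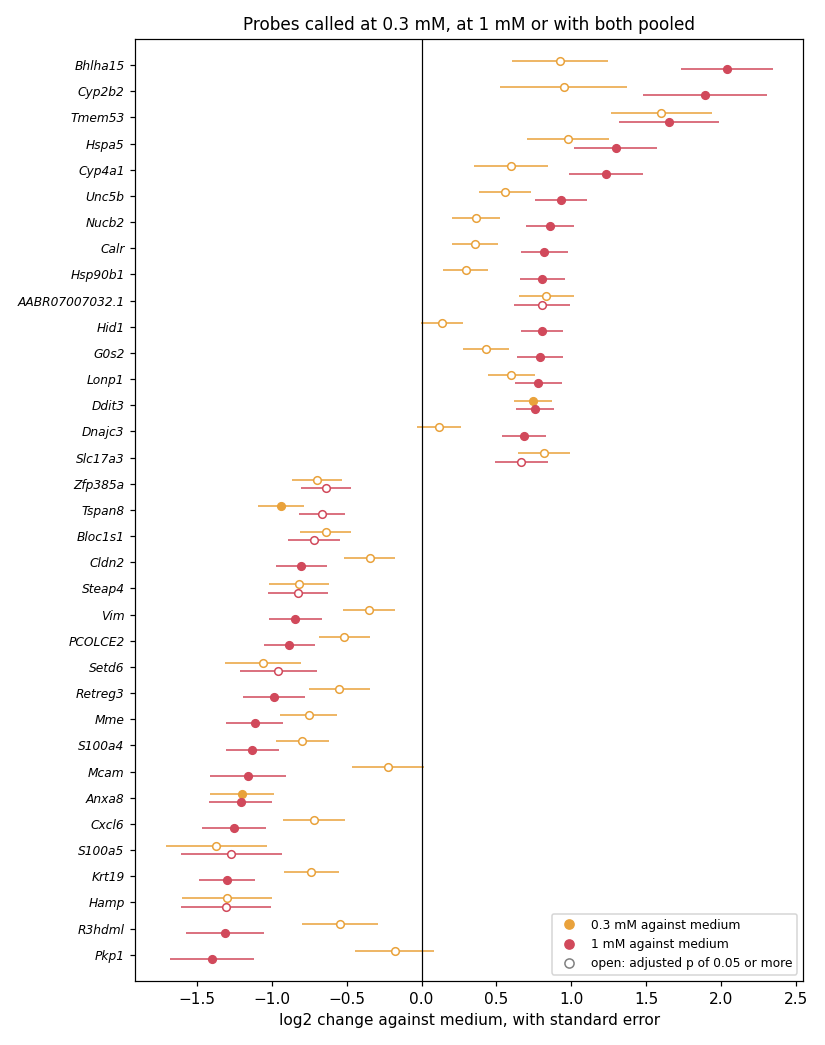
Log2 change from medium ± SE at 0.3 mM and 1 mM for 35 probes called in at least 1 of the 3 comparisons with medium (0.3 mM, 1 mM and both pooled), with filled points for adjusted p under 0.05 at that concentration. Ddit3 and Anxa8 are filled at both concentrations, and Krt19 and Bhlha15 at 1 mM.

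Pooling the 6 exposed libraries against medium called 21 probes (0.17% of 12339), 7 higher (0.0567%) and 14 lower (0.113%). Ddit3 (0.75 ± 0.113) and Anxa8 (-1.20 ± 0.177) each had an adjusted p of 0.0016. The probes reached by pooling and by neither concentration alone were 8. Hamp (hepcidin), the iron-regulating hormone of the liver, was at 10.1, 12.8 and 12.1 CPM in medium, at 6.06, 5.13 and 3.36 CPM at 0.3 mM and at 5.2, 5.1 and 4.13 CPM at 1 mM (-1.30 ± 0.25, adjusted p = 0.0214). Steap4, a metalloreductase induced by inflammation, was at 156, 154 and 139 CPM in medium, at 86.7, 101 and 75.2 CPM at 0.3 mM and at 108, 85 and 64.9 CPM at 1 mM (-0.82 ± 0.168, adjusted p = 0.0399). All 6 exposed libraries were below medium for both, and both were higher in DMSO than in medium or these NE libraries (Hamp 27.1, 23.6 and 40.3 CPM, Steap4 205, 218 and 219 CPM). Neither fall began at 0.3 mM, since NE at 0.01 and 0.1 mM was also below medium and overlapped 0.3 mM. Hamp was at 5.14, 5.63 and 6.75 CPM at 0.01 mM and at 3.77, 5.1 and 7.13 CPM at 0.1 mM. Steap4 was at 121, 112 and 92.7 CPM at 0.01 mM and at 105, 87.9 and 109 CPM at 0.1 mM. Slc17a3, an organic anion transporter, rose to 55.1, 59 and 68.6 CPM at 0.3 mM and 51.4, 49.3 and 61.7 CPM at 1 mM from 36, 30.6 and 32.7 CPM (0.74 ± 0.156, adjusted p = 0.0452). It was already above medium at 0.1 mM (50.8, 48.5 and 52.1 CPM), where it overlapped 1 mM. The other 5 were AABR07007032.1, which was higher, and Zfp385a, S100a5, Setd6 and Bloc1s1, which were lower, with adjusted p from 0.0364 to 0.0491. Zfp385a at 0.1 mM (60.7, 61.5 and 60.8 CPM) was already below medium (83.6, 83.1 and 94.9 CPM) and overlapped 0.3 mM (55.7, 62.5 and 48.5 CPM). Setd6 at 0.1 mM was also below medium and overlapped 0.3 mM, and AABR07007032.1 was above medium and overlapped 0.3 mM. Leaving out 1 library gave 4 (medium replicate 3) to 22 calls (NE 0.3 mM replicate 2), with 8 without medium replicate 1 and without NE 0.3 mM replicate 3, 9 without NE 1 mM replicate 3, 10 without medium replicate 2, and 13 without NE 0.3 mM replicate 1 and without NE 1 mM replicate 2. Ddit3 and Anxa8 were called in all 9 of these fits. Taking the 2 libraries of 0.01 and 10 mM out of the fit gave 192 calls (1.55%), 43 higher and 149 lower, and taking the 3rd replicates of 0.3 and 1 mM out as well gave 248 (2.02%).

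The direct comparison of 1 mM with 0.3 mM asks which genes changed between them, and it called no probe of 12339 (0%) with edgeR, where 485 had an unadjusted p under 0.05 and the smallest adjusted p was 0.296. A call at one concentration and not at the other therefore does not show a difference between them. Hsp90b1 differed by 0.51, with a 95% interval of 0.216 to 0.806, Dnajc3 by 0.57 (0.278 to 0.857), Hyou1 by 0.77 (0.326 to 1.21) and Krt19 by -0.56 (-0.926 to -0.196). In the fit without the 2 libraries of 0.01 and 10 mM, 8 probes were called (0.0647% of 12374), all higher at 1 mM. Among these were 3 of the ER list, Hyou1 (0.77 ± 0.113, adjusted p = 0.00385), Creld2 (0.69 ± 0.115, 0.00751) and Dnajc3 (0.57 ± 0.102, 0.014), together with Hid1 (0.66, 0.00927). Gmppb, which makes the mannose donor for glycosylation (0.69, 0.00751), and Slc35b1, which carries ATP into the ER (0.69, 0.00751), were called too. Completing the 8 were Bhmt (1.11, 0.0305) and its neighbour and close relative Bhmt2 (0.86, 0.02), methyltransferases of homocysteine. Gmppb was at 38.3, 32.1 and 44 CPM at 0.3 mM and at 63.9, 57.9 and 58.8 CPM at 1 mM, around a medium of 45.1, 43.6 and 44 CPM. Bhmt was at 23.6, 26 and 21.1 CPM at 0.3 mM, at 56.2, 57.2 and 36.9 CPM at 1 mM and at 27, 38.7 and 21.1 CPM in medium, so only 2 of its 1 mM libraries lay above all medium libraries. With the 3rd replicates out as well, 23 probes were called (0.188%), 19 higher and 4 lower.

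The lower NE concentrations, 0.003 to 0.1 mM, gave a second reference of 12 libraries that shared no library with medium and lay in the same plate columns as the exposed wells. Against them the pooled 0.3 and 1 mM libraries differed in 15 probes (0.122% of 12339), 10 higher (0.081%) and 5 lower (0.0405%). Ddit3 rose by 0.49 ± 0.0763 (adjusted p = 0.00397) and Lonp1 by 0.67 ± 0.0943 (adjusted p = 0.00166), and both were called in all 18 fits that left out 1 library. Trib3, the pseudokinase induced by ATF4 and CHOP, rose by 0.44 ± 0.0746 (adjusted p = 0.00674) and was called in 17 of the 18. It was at 43.3 to 73 CPM in the 12 lower NE libraries, at 72.1, 93.3 and 92.6 CPM at 0.3 mM and at 85.8, 90.9 and 98.9 CPM at 1 mM. Against medium (59, 68.7 and 68.4 CPM) it was not called at either concentration (adjusted p = 0.395 and 0.153). Gtpbp2, a GTPase of the response to stalled ribosomes, rose by 0.51 ± 0.087 (adjusted p = 0.00674), with 90.4, 95 and 134 CPM at 0.3 mM and 98.2, 102 and 144 CPM at 1 mM, replicate 3 again highest in each. Unc5b (0.57), Itpk1 (0.50), an inositol phosphate kinase, and G0s2 (0.46) were higher as well. Anxa8 (-0.88), Krt19 (-0.69) and the cytochrome P450 Cyp3a9 (-0.49, adjusted p = 0.0442) were lower. Leaving out NE 0.3 mM replicate 3 or NE 1 mM replicate 3 left 6 calls each, leaving out NE 0.03 mM replicate 2 or NE 0.1 mM replicate 2 left 9, and leaving out NE 0.01 mM replicate 3 gave 27. With the 2 libraries of 0.01 and 10 mM out, 127 were called (1.03%), and with the 3rd replicates of 0.3 and 1 mM out too 66 (0.538%).

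Along the whole series of concentrations, the number of probes called against medium was 0 at 0.003 mM, 2 at 0.01 mM (0.0162%), 0 at 0.03 mM and 0 at 0.1 mM, 4 at 0.3 mM, 27 at 1 mM, 1423 at 3 mM (11.5%, with 5.38% lower) and 4197 at 10 mM (34%). Ddit3 was at 275, 300 and 298 CPM at 0.003 mM, at 314, 319 and 239 CPM at 0.01 mM, at 338, 300 and 336 CPM at 0.03 mM and at 349, 394 and 350 CPM at 0.1 mM. At 0.1 mM all 3 libraries were already above medium and below 0.3 mM, with a log2 change of 0.45 ± 0.127 that was not called (adjusted p = 1). At 3 mM Ddit3 returned to 232, 254 and 226 CPM and at 10 mM to 286, 240 and 244 CPM, and the fall from 1 to 3 mM was called (-0.85 ± 0.128, adjusted p = 0.000163), as were 8.55% of all probes. Hsp90b1 took the other course, at 2070, 1670 and 1440 CPM at 3 mM and 5700, 4920 and 5530 CPM at 10 mM (0.97 from 1 to 3 mM, adjusted p = 0.000214). Tspan8 was lower at 0.03 mM (115, 117 and 113 CPM) and 0.1 mM (109, 121 and 106 CPM) than in medium, without a call, and at 3 mM stood at 156, 171 and 188 CPM, overlapping medium.

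The list of ATF4 and amino acid response genes had 35 probes tested, of which 1, Ddit3, was called higher at each of 0.3 and 1 mM. Over all 12339 probes, 1 and 14 were called higher. The medians of the list were 0.16 and 0.19, beside 0.022 and 0.023 over all probes, with 22 and 27 of 35 above 0. Again with the 2 libraries of 0.01 and 10 mM out, 4 of the 35 were called higher at 1 mM, where 56 of 12374 probes were. The 4 were Ddit3, Trib3, Cth, which makes cysteine (0.60, adjusted p = 0.0484), and Pycr1, which makes proline (0.57, adjusted p = 0.032). Atf4 itself was at 234, 238 and 238 CPM in medium, at 237, 248 and 238 CPM at 0.3 mM and at 281, 304 and 282 CPM at 1 mM. Its 1 mM libraries were the highest, but the log2 change of 0.25 was not called (adjusted p = 0.44). In DMSO 7 of the 35 were called lower (1.43% of all probes), and the median was -0.45. Against DMSO 13 of the 35 were called higher at each of 0.3 mM (2.11% of all probes) and 1 mM (1.15%), with medians of 0.52 and 0.57.

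No member was called at either concentration in the lists of inflammation and acute phase (20 probes, medians -0.29 and -0.22) and of cell cycle and DNA replication (18 probes, medians 0.17 and -0.41), nor in those of NRF2 targets (36 probes, medians 0.075 and 0.056), p53 targets (20 probes, 0.068 and 0.021) and cytosolic heat shock (12 probes, -0.14 and -0.15). Only 4 and 27 of all 12339 probes were called at these concentrations, so the absence of calls does not set lists this short apart. The cell cycle list had 12 of 18 probes above 0 at 0.3 mM and 2 of 18 at 1 mM. In the fit without the 2 libraries of 0.01 and 10 mM, its members Ccnd1, a cyclin of the G1 phase (-0.59, adjusted p = 0.0345), and Pcna, the sliding clamp of DNA replication (-0.60, adjusted p = 0.0484), were called lower at 1 mM, where 93 of 12374 probes were. At 3 mM 11 of 18 were called lower, where 664 of 12339 probes were. In the inflammation list 3 of 20 were called lower at each of 0.3 and 1 mM in the fit without those 2 libraries, where 0.113% and 0.752% of all probes were. DMSO against medium had 13 called higher, where 2.13% were. Among 32 PPARα target probes 1 was called at 1 mM, Cyp4a1, and among 8 CAR and PXR target probes 1, Cyp2b2, where 0.113% of all probes were called higher.

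**Figure D4:**
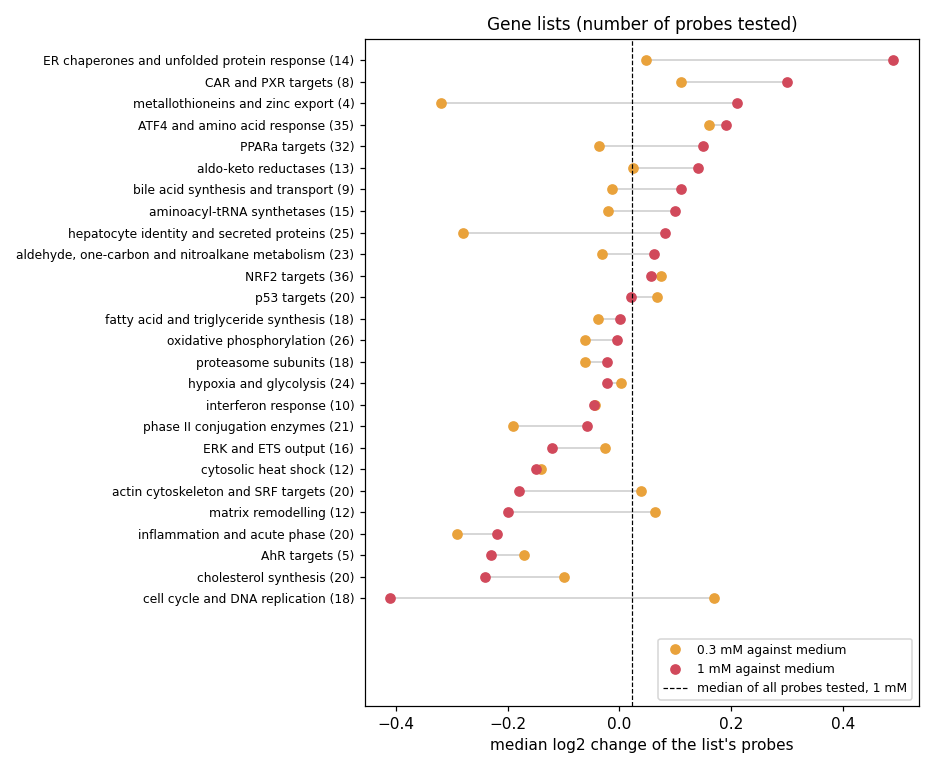
Median log2 change from medium of the 26 gene lists at 0.3 mM and 1 mM, with a dashed line for the median over all 12339 probes at 1 mM (0.023). The ER chaperone list has the highest median at 1 mM (0.49), and the cell cycle list lies at 0.17 at 0.3 mM and at -0.41 at 1 mM.

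The related compounds nitromethane (NM), which is 1 carbon shorter than NE, and 1-nitropropane (1NP), which is 1 carbon longer, were measured at the same concentrations and time. NM wells lay in other plate columns than those of NE and medium, so column and compound cannot be told apart. NM against medium called no probe of 11980 at 0.3 or at 1 mM (0%), with 246 and 897 at an unadjusted p under 0.05. Several falls seen with NE were nonetheless present in NM 0.3 mM, with every library below medium. Tspan8 was at 131, 119 and 129 CPM, Anxa8 at 11.9, 13.2 and 16.4 CPM and Mme at 30.9, 30.8 and 26.4 CPM. Krt19 was at 32, 31.6 and 37.3 CPM and Hamp at 3.81, 6.19 and 4 CPM. Vim (255, 296 and 352 CPM) and Cldn2 (138, 141 and 174 CPM) overlapped medium. NE against NM called none at 0.3 mM (0% of 11980, 822 at an unadjusted p under 0.05, smallest adjusted p 0.663) and 3 at 1 mM (0.025%), 2 higher (0.0167%) and 1 lower (0.00835%). Ddit3 was at 297, 330 and 293 CPM in NM 0.3 mM and at 280, 282 and 273 CPM in NM 1 mM, below every NE library of the same concentration. NE exceeded NM by 0.74 at 1 mM (95% interval 0.548 to 0.94, adjusted p = 0.0274) and by 0.55 at 0.3 mM (0.35 to 0.741, not called). Dnajc3 was at 535, 508 and 438 CPM in NM 1 mM, also below every NE 1 mM library, a difference of 0.63 (0.445 to 0.817, adjusted p = 0.0348). Calcb, a calcitonin gene-related peptide, was at 506, 460 and 515 CPM in medium, 303, 308 and 318 CPM in NE 1 mM and 515, 438 and 472 CPM in NM 1 mM, a difference of -0.61 (-0.783 to -0.441, adjusted p = 0.0274). All 14 ER list probes were higher in NE than in NM at 1 mM, with a median of 0.53 beside -0.011 over all probes, and 1 of them was called. Leaving out 1 of the 6 libraries left no call at 1 mM, except that 3 stayed without NE 1 mM replicate 3, and with the replicate block 1 was called.

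1NP lay in set 2 with its own medium, so its effect was compared with that of NE as a difference of the changes from medium. No probe of 11780 was called (0%, with 825 at an unadjusted p under 0.05 and a smallest adjusted p of 0.71). Ddit3 was at 263, 248 and 296 CPM in medium of set 2, at 362, 433 and 398 CPM in 1NP 0.3 mM and at 228, 295 and 350 CPM in 1NP 1 mM. The effect of NE exceeded that of 1NP at 1 mM by 0.59, with an interval of 0.131 to 1.04. For Dnajc3 the difference was 0.0113 (-0.469 to 0.492) and for Hsp90b1 -0.20 (-1.03 to 0.626). The 1NP 1 mM libraries were far apart from each other, with Hsp90b1 at 412, 662 and 1320 CPM.

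**Figure D5:**
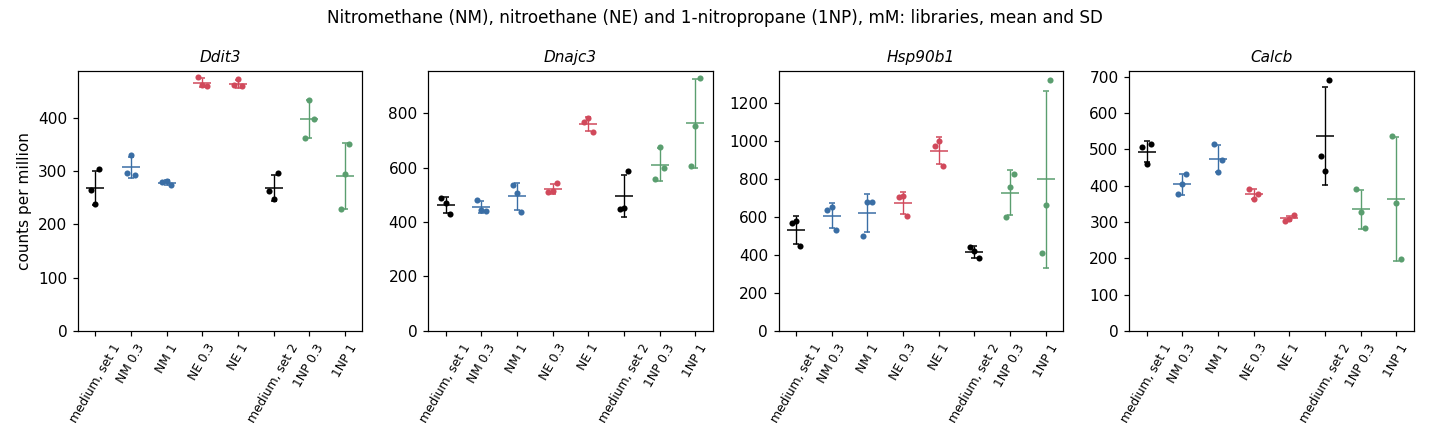
Levels in CPM (linear axes from 0) of Ddit3, Dnajc3, Hsp90b1 and Calcb in medium of set 1, NM and NE at 0.3 and 1 mM, medium of set 2 and 1NP at 0.3 and 1 mM, with points for libraries and bars for mean ± SD (n = 3). Ddit3 in the 6 NE libraries lies between 460 and 476 CPM, above the 6 NM libraries, which lie between 273 and 330 CPM.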

How the data were processed

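The deposited table holds raw read counts per TempO-Seq probe, 22253 probes by 105 libraries, with no normalization by the authors. Per the submitters' processing notes FastQC, Bowtie, R 3.5.3 and DESeq2 1.28.1 were used, with no role given for each, and the genome build is not given in the sources used here. The panel is labelled human, but its symbols are rat symbols, of which 15980 of 20946 were found in a RefSeq rat table (assembly GRCr8). Near-identical genes may share a probe, and counting by probe gives no strand or length information. Intervals and floors cover counting error or the fit only, not PCR duplication.

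Counts of medium of set 1 and the 8 NE concentrations (27 libraries) were fitted together with edgeR 4.0.16 in R 4.3.3 (filterByExpr with a minimum count of 10 and a minimum total of 15, TMM scaling, robust estimateDisp and glmQLFit, quasi-likelihood F test). Benjamini-Hochberg adjustment ran over all 12339 probes kept, and a probe was called at an adjusted p under 0.05. The comparisons with NM used 15 libraries, that with 1NP 12, and those with DMSO a fit with DMSO added. The approximate SE was obtained by dividing the size of a log2 change by √F, and 95% intervals use it with the normal quantile. The test was checked on simulated counts with known changes. The genes and lists were chosen with earlier results of these data known. Genes named are the probes called against medium (1 called gene is not reported here, though it stays in every count of calls outside the promoter counts and the plot of called probes), the 10 largest rises and falls against the lower NE concentrations, and at most 4 called members of each list. Other genes (Hyou1, Creld2, Pdia6, Atf4, Epcam, Sox9, Lcn2, A2m, Orm1, Cth, Pycr1, Ccnd1, Pcna, Gmppb, Slc35b1, Bhmt, Bhmt2 and Calcb) were chosen after their values were seen or as list members.

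Replicate numbers did not pair medium with NE: correlations of deviations between same-numbered libraries ran from -0.0037 to 0.036. Those of NE 0.3 and 1 mM were 0.35, 0.36 and 0.71, while differently numbered libraries ran from -0.52 to 0.36. Only the pair of 3rd replicates, which both stood apart, lay clearly above that range, so the values do not settle whether replicate numbers pair. The main fit held no replicate block. With the block, run as an alternative, the count of 1 against 0.3 mM stayed at 0. No 2 libraries of a group agreed within counting error. Alternatives tried were DESeq2 1.42.0 (Wald test and size factors), no filter, counts summed per symbol, only the libraries compared, the replicate block, other controls and leaving out libraries.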

Additional observations from a re-analysis of the deposited data

Results flagged for a closer look

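At 1 mM, 3 genes differed between NE and NM by a direct test of the difference, in libraries of the same set. Ddit3 was higher in NE by 0.7437 on the log2 scale and Dnajc3 by 0.6309, and Calcb was lower, at -0.6118, with adjusted p of 0.0274, 0.0348 and 0.0274 (edgeR quasi-likelihood F test over 11980 probes, 3 against 3 libraries). In each case all 3 NE libraries lay on the same side of all 3 NM libraries, which was so for 6.99% of the probes tested. NM at 1 mM called no probe against medium. The calls of all 3 genes were lost when any 1 NM library was left out.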

How the results depend on the processing

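The cause of each change below was not tested unless the setting itself shows it. Numbers of calls follow the order 0.3 mM, 1 mM and both pooled against medium, 1 against 0.3 mM, pooled against lower NE, NE against NM at 0.3 and at 1 mM, and NE against 1NP. The main counts were 4, 27, 21, 0, 15, 0, 3 and 0. DESeq2's Wald test gave 46, 105, 104, 7, 155, 7, 18 and 1. No filter on low counts gave 152, 217, 303, 32 and 460 for the first 5 and 106 for 1NP. Fitting only the libraries compared gave 2, 8 and 13 against medium, 49 against lower NE and 0 against NM at 1 mM. Leaving NE 10 mM replicate 2 and NE 0.01 mM replicate 3 out gave 18, 149, 192, 8 and 127, and leaving out the 4 libraries that stood apart, an alternative chosen after seeing the data, gave 11, 222, 248, 23 and 66. Leaving out both 3rd replicates gave 0, 17 and 9 against medium, 3 against lower NE and 6 against NM at 1 mM. Summing counts per symbol gave 24 against lower NE. DMSO as control gave 652, 346 and 752, and lower NE as control 0 at 0.3 mM.

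Leaving out 1 library at a time gave 0 to 3 calls at 0.3 mM, 3 to 16 at 1 mM, 4 to 22 pooled, 0 to 2 between 1 and 0.3 mM, 6 to 27 against lower NE, 0 to 1 and 0 to 3 against NM at 0.3 and 1 mM, and 0 to 0 against 1NP. The replicate block gave 4, 26, 17, 0, 18, 0 and 1, and no paired analysis was possible for 1NP because medium of set 2 shares no replicate number with set 1. DESeq2 size factors in edgeR changed no count by over 1.5 times.

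Of 63 gene values named, 63 kept direction and call under the Wald test, 53 under the block and 26 when only the libraries compared were fitted (37 lost the call). With lower NE as control 27 of 49 kept the call and 22 lost it. The block ended the calls of Dnajc3, Cyp2b2 and Mcam at 1 mM (adjusted p = 0.0534, 0.0636 and 0.0512), of Unc5b, Slc17a3, Zfp385a, S100a5 and Bloc1s1 pooled (0.0535, 0.0563, 0.0587, 0.0535 and 0.0563), and of Calcb and Ddit3 between NE and NM (0.0574 each). With DMSO as control 17 of 49 kept both, 23 lost the call and 9 changed sign: Krt19 (0.10), Cyp4a1 (-1.26, adjusted p = 0.00116) and Cyp2b2 (-0.19) at 1 mM, and pooled Krt19 (0.38), S100a4 (0.15), Mme (0.037), Bhlha15 (-0.11), PCOLCE2 (0.0066) and Zfp385a (0.10). No named gene changed sign under another setting run. Bhlha15, Tmem53 and Cyp2b2 had mean levels of 5.44, 6.16 and 4.87 CPM over the medium and NE 1 mM libraries. Whether depth limited probes at such levels was not tested.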
